A study of Mus musculus with 2 samples.

Results

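A set of 9 surface receptors through which phagocytes take up dying cells, modified lipoprotein or haemoglobin was described in single leukocytes of the mouse heart, with and without a high dose of isoproterenol. The genes were Mertk, Axl, Timd4, Stab1, Trem2, Cd36, Msr1, Olr1 and Cd163. They were chosen by name as known uptake receptors, with earlier results of these data known. All 9 were found by gene symbol in both count tables, which hold 23946 genes with a UMI in at least 1 library. The study used female C57BL6 mice, 8 to 16 weeks old for the study as a whole. The TTS group, named after the Takotsubo syndrome it models, received a single intraperitoneal injection of 200 mg/kg isoproterenol (ISO), a β-adrenergic agonist, and the Control group received the vehicle, as the study's methods give it. Hearts were taken after 24 h, and live cells were sorted for the protein CD45, which marks leukocytes. The paper's clusters of the sorted cells also included fibroblasts, endothelial cells and mural cells. In each group 3 hearts were pooled. Each group was therefore 1 library, and no test between the groups was possible.

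Efferocytosis is the uptake of apoptotic cells. Dying cells display phosphatidylserine, which phagocytes bind directly, through Timd4, Stab1 or Cd36, or by way of bridging proteins such as Gas6, which binds the receptor kinases Mertk and Axl. Trem2 binds lipids and lipoproteins, and signals through the adaptor Tyrobp. Scavenger receptors take up modified lipoproteins and other polyanionic ligands (Msr1, Olr1 and Cd36) or complexes of haemoglobin and haptoglobin (Cd163). In the heart, resident macrophages clear cell debris, and Timd4 and Cd163 are among the genes used to recognize them.

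The Control library held 5927 barcodes and the TTS library 5514, of which 5641 and 5437 were kept. The median depth was 4790.0 unique molecular identifiers (UMIs, counted molecules) per kept cell in Control and 8537.0 in TTS, and 15 barcodes occurred in both libraries. Cells were sorted into gates by marker genes, none of which was a receptor described here. Barcodes that held a macrophage, monocyte or dendritic cell program together with markers of another lineage made up 31.3% of kept barcodes in Control and 23.7% in TTS. Their median depth was 11393.0 and 11490.5 UMIs, against 6134.0 and 8448.0 in the macrophages, and they were set aside. They held 57.6% to 69.1% of the UMIs of each receptor in Control and 31.1% to 47.1% in TTS, so results are also given with them kept. A further 21.3% and 11.5% of kept barcodes fell in no gate.

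Macrophages were split into resident macrophages (Lyve1, Folr2, Cbr2, Vsig4 and Fcna), MHC class II high Ccr2-negative macrophages, Ccr2 macrophages with little Arg1, and Arg1-high macrophages. Ccr2 is the receptor that draws monocytes into tissue, and Arg1 encodes arginase 1. The resident gate held 416 Control cells and 129 TTS cells. Their C1qa, a macrophage marker that encodes the complement C1q A chain, stood at 5923.5 and 6013.1 CPM, the usual level of a gene scaled to the total UMIs of the gate, and their Lyve1 at 601 and 787 CPM. Other markers of the gate were lower in TTS, Folr2 at 762 and 588 CPM and Cbr2 at 825 and 610 CPM, and the MHC class II gene H2-Aa was at 4357.4 and 705 CPM. The MHC class II high gate held 221 and 48 cells. The Ccr2 gate held 81 and 766 cells, and the Arg1-high gate 1 and 660. Another 86 and 218 macrophages met no gate or more than 1. The latter held resident markers together with Ccr2 or Arg1, and the resident gate left them out. The 218 TTS cells held 186 CPM of Lyve1 and 9465.9 CPM of Spp1.

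The other phagocyte gates were small in Control. Classical monocytes numbered 50 in Control and 1079 in TTS, nonclassical monocytes 67 and 7, type 1 dendritic cells 41 and 100, and type 2 dendritic cells 46 and 328. Gates of the same name did not hold like cells in both libraries. Spp1, which encodes osteopontin, was listed at 21.1 CPM in Control Ccr2 macrophages and 5656.8 CPM in TTS, and at 0 and 3979.9 CPM in classical monocytes. H2-Aa was at 9439.8 CPM in Control Ccr2 macrophages and 1349.2 CPM in TTS. Of the 2907 TTS monocytes and macrophages, 610 lay within 20% of the classical monocyte limit, and 5.05% of TTS macrophages lay within 20% of the Arg1 limit, so these gates cut a continuum. Fewer cells of a kind and less RNA per cell can be told apart here only as far as the gates separate the cells.

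Levels are given as CPM of the UMIs summed over a gate. Brackets after a level hold its 95% Poisson interval, and brackets after a log2 ratio of TTS over Control hold the 95% interval from the exact binomial split of the UMIs. Both cover counting error only and say nothing of variation between mice. Ratios were taken where both libraries held at least 50 cells in a gate, after adding 0.5 UMI, and a receptor was called past 2-fold where it had at least 20 UMIs in both libraries together. Resident macrophages, Ccr2 macrophages, classical monocytes and all macrophages together met this.

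Among all macrophages, 5 of the 9 receptors were past 2-fold lower in TTS and 2 were past 2-fold higher. Across all 12179 genes with enough UMIs, 20.9% were past 2-fold lower and 9.59% past 2-fold higher, and the median log2 ratio was -0.24. Those lower were Timd4, Cd163, Axl, Cd36 and Mertk, and those higher were Msr1 and Olr1. Stab1 and Trem2 stayed within 2-fold. With the barcodes of 2 lineages kept, 3 were past 2-fold lower, since Mertk was then at -0.79 and Cd36 at -0.96.

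Timd4 (TIM-4) binds phosphatidylserine and tethers dying cells; its gene lies at chr11:46810800-46844332 of the mm10 build. All macrophages held 83.5 CPM in Control and 8.72 CPM in TTS, a log2 ratio of -3.26 (-3.53 to -3.00). Cd163 (chr6:124304656-124330527) stood at 397 CPM and 83.4 CPM, a log2 ratio of -2.25 (-2.35 to -2.16). Both were highest in the resident gate in either library.

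Axl (chr7:25757273-25788705) was at 203 CPM in Control macrophages and 43.8 CPM in TTS, a log2 ratio of -2.21 (-2.34 to -2.08). Its relative Mertk (chr2:128698956-128802894) was at 83.0 and 33.8 CPM, a log2 ratio of -1.30 (-1.47 to -1.12). Cd36 (chr5:17781690-17888801), which also imports fatty acids, was at 330 and 98.6 CPM, a log2 ratio of -1.74 (-1.84 to -1.65). None of these intervals reached 0.

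Msr1 (scavenger receptor A, chr8:39581685-39642673) was at 110 CPM in Control macrophages and 481 CPM in TTS, a log2 ratio of 2.12 (2.01 to 2.24). Olr1 (LOX-1, a receptor of oxidized lipoprotein, chr6:129485244-129507165) had 8 UMIs in Control, 1.42 CPM, and 1018 UMIs in TTS, 56.2 CPM. Its log2 ratio was 5.22 (4.33 to 6.53). Trem2 (chr17:48346401-48354147) was at 164 and 256 CPM, a log2 ratio of 0.64 (0.54 to 0.74), and Stab1 (stabilin-1, chr14:31139013-31168641) at 284 and 149 CPM, a log2 ratio of -0.93 (-1.02 to -0.84). All 9 genes are annotated as protein coding.

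**Figure D1:**
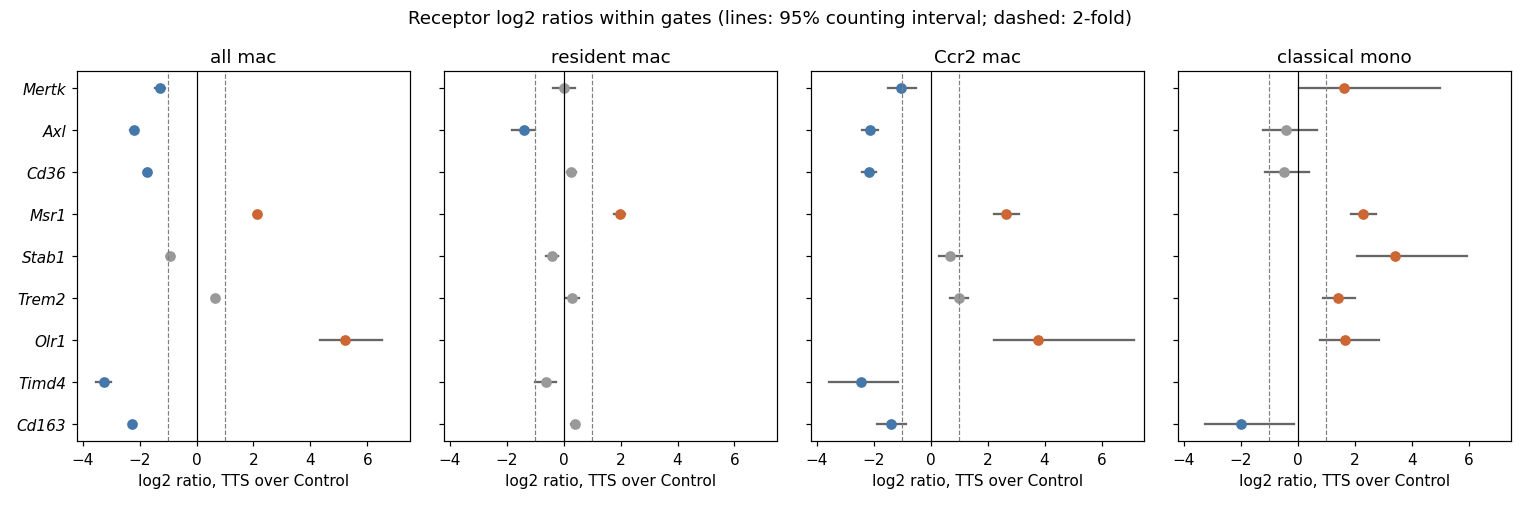
Log2 ratio of TTS over Control for each receptor (rows) among all macrophages, resident macrophages, Ccr2 macrophages with little Arg1 and classical monocytes (panels). Points are the ratios of summed UMIs, lines their 95% counting intervals, dashed lines 2-fold, orange past 2-fold higher, blue past 2-fold lower and grey within 2-fold, and receptors with fewer than 20 UMIs are left out. Msr1 stood past 2-fold higher in all 4 panels, and Axl past 2-fold lower in the first 3.

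In resident macrophages, most receptors lay within 2-fold of Control. Of the 8 receptors with enough UMIs, 1 was past 2-fold lower (Axl) and 1 past 2-fold higher (Msr1). Across 9307 genes, 9.18% were past 2-fold lower and 8.29% past 2-fold higher, so neither count was far from the share over all genes. The median log2 ratio was 0.15 over the receptors and 0.04 over all genes.

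Msr1 was at 128 CPM (115 to 142) in Control resident macrophages and 502 CPM (456 to 550) in TTS, a log2 ratio of 1.97 (1.77 to 2.17). Axl was at 161 CPM (147 to 177) and 61.3 CPM (46.2 to 79.8), a log2 ratio of -1.38 (-1.83 to -0.99). The Control and TTS intervals did not overlap for either gene.

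Cd163 was at 619 CPM (591 to 648) in Control resident macrophages and 815 CPM (757 to 876) in TTS, a log2 ratio of 0.40 (0.27 to 0.52). Cd36 was at 401 and 484 CPM, a log2 ratio of 0.27 (0.11 to 0.43), and Mertk at 86.8 and 88.1 CPM, a log2 ratio of 0.03 (-0.36 to 0.39). These 3 genes were past 2-fold lower over all macrophages, but in the resident gate none had a ratio below 0. The MHC class II high gate, with 48 TTS cells, was too small for a ratio. Its levels were lower in TTS, with Cd36 at 244 and 98.6 CPM, Mertk at 89.9 and 43.5 CPM and Cd163 at 135 and 80.2 CPM. In resident macrophages Timd4 was at 132 and 84.7 CPM, a log2 ratio of -0.63 (-1.01 to -0.28). This ratio lay at -0.18 with the barcodes of 2 lineages kept. Stab1 was at 389 and 293 CPM, with -0.41 (-0.61 to -0.21), and Trem2 at 189 and 234 CPM, with 0.31 (0.07 to 0.54). Olr1 had 3 UMIs in each library, and no fold was taken. These levels leave out cells with resident markers and Ccr2 or Arg1, which fell among the macrophages outside the gates. Those macrophages held 290 CPM of Cd163 in Control and 226 CPM in TTS, and 248 and 182 CPM of Cd36. Their Mertk was at 80.0 and 48.9 CPM and their Olr1 at 3.02 and 49.4 CPM.

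TTS resident macrophages also held 523 CPM of Spp1, against 4.05 CPM in Control, while Arg1-high macrophages held 12667.3 CPM. If all of that Spp1 came from RNA of Arg1-high macrophages, such RNA would make up 4.13% of the UMIs and bring 24.0 CPM of Msr1 with it, out of 502 CPM measured. It would bring 3.01 CPM of Olr1, against 3.34 CPM (0.690 to 9.78) measured from 3 UMIs. TTS classical monocytes held 3979.9 CPM of Spp1 and 487 CPM of Msr1. Their RNA would bring more Msr1 for the same Spp1, so these amounts are not upper limits for other sources.

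In Ccr2 macrophages, 5 receptors were past 2-fold lower in TTS and 2 past 2-fold higher, of 9 with enough UMIs. Across 9883 genes the shares were 14.1% and 11.8%. Control Ccr2 macrophages had 67.6 CPM of Msr1 (49.8 to 89.6), TTS ones had 423 CPM (408 to 438), and this made a log2 ratio of 2.63 (2.23 to 3.09). Olr1 had 2 UMIs in Control, 2.82 CPM (0.341 to 10.2), and 348 in TTS, 48.4 CPM (43.4 to 53.8), and its log2 ratio of 3.78 had a wide interval of 2.24 to 7.15. The ratio was 1.35 with the mean of per-cell CPM in place of summed UMIs.

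The lower receptors in this gate were Timd4, Cd36, Axl, Cd163 and Mertk. Axl was at 221 and 50.6 CPM, a log2 ratio of -2.13 (-2.40 to -1.85), and Cd36 at 274 and 61.1 CPM, with -2.17 (-2.42 to -1.92). Timd4 (14.1 and 2.64 CPM), Cd163 (59.1 and 22.4 CPM) and Mertk (57.7 and 28.4 CPM) started low, and Mertk only just passed the limit at -1.04 (-1.51 to -0.50). With the barcodes of 2 lineages kept, 2 receptors were past 2-fold lower, Axl at -1.44 and Cd36 at -1.21. With marker limits doubled, 3 were. Trem2 was at 121 and 239 CPM, with 0.98 (0.67 to 1.31), and Stab1 at 78.8 and 127 CPM, with 0.68 (0.30 to 1.11).

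In classical monocytes, 1 receptor was past 2-fold lower and 5 were past 2-fold higher, of 8 with enough UMIs. Across 9878 genes, 20.1% were past 2-fold lower and 11.9% past 2-fold higher. Msr1 was at 99.3 CPM (72.4 to 133) in the 50 Control cells and 487 CPM (473 to 502) in TTS, a log2 ratio of 2.28 (1.87 to 2.75). Stab1 had 3 UMIs in Control and 739 in TTS, a log2 ratio of 3.43 (2.09 to 5.93). Trem2 was at 61.8 and 166 CPM, with 1.40 (0.89 to 2.02), and Olr1 at 19.9 and 65.5 CPM, with 1.65 (0.79 to 2.86).

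Mertk had 2 UMIs in the Control monocytes and 150 in TTS, a log2 ratio of 1.61 (0.05 to 4.99), and Cd163 had 5 and 27, a log2 ratio of -1.98 (-3.26 to -0.13). Axl (24.3 and 19.0 CPM) and Cd36 (35.3 and 26.0 CPM) were low in both libraries, with intervals of the ratio that held 0. The 50 Control cells set the width of all of these intervals. TTS classical monocytes also held 3979.9 CPM of Spp1, against 12667.3 CPM in Arg1-high macrophages, and the part of macrophage RNA in their receptor levels was not tested.

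**Figure D2:**
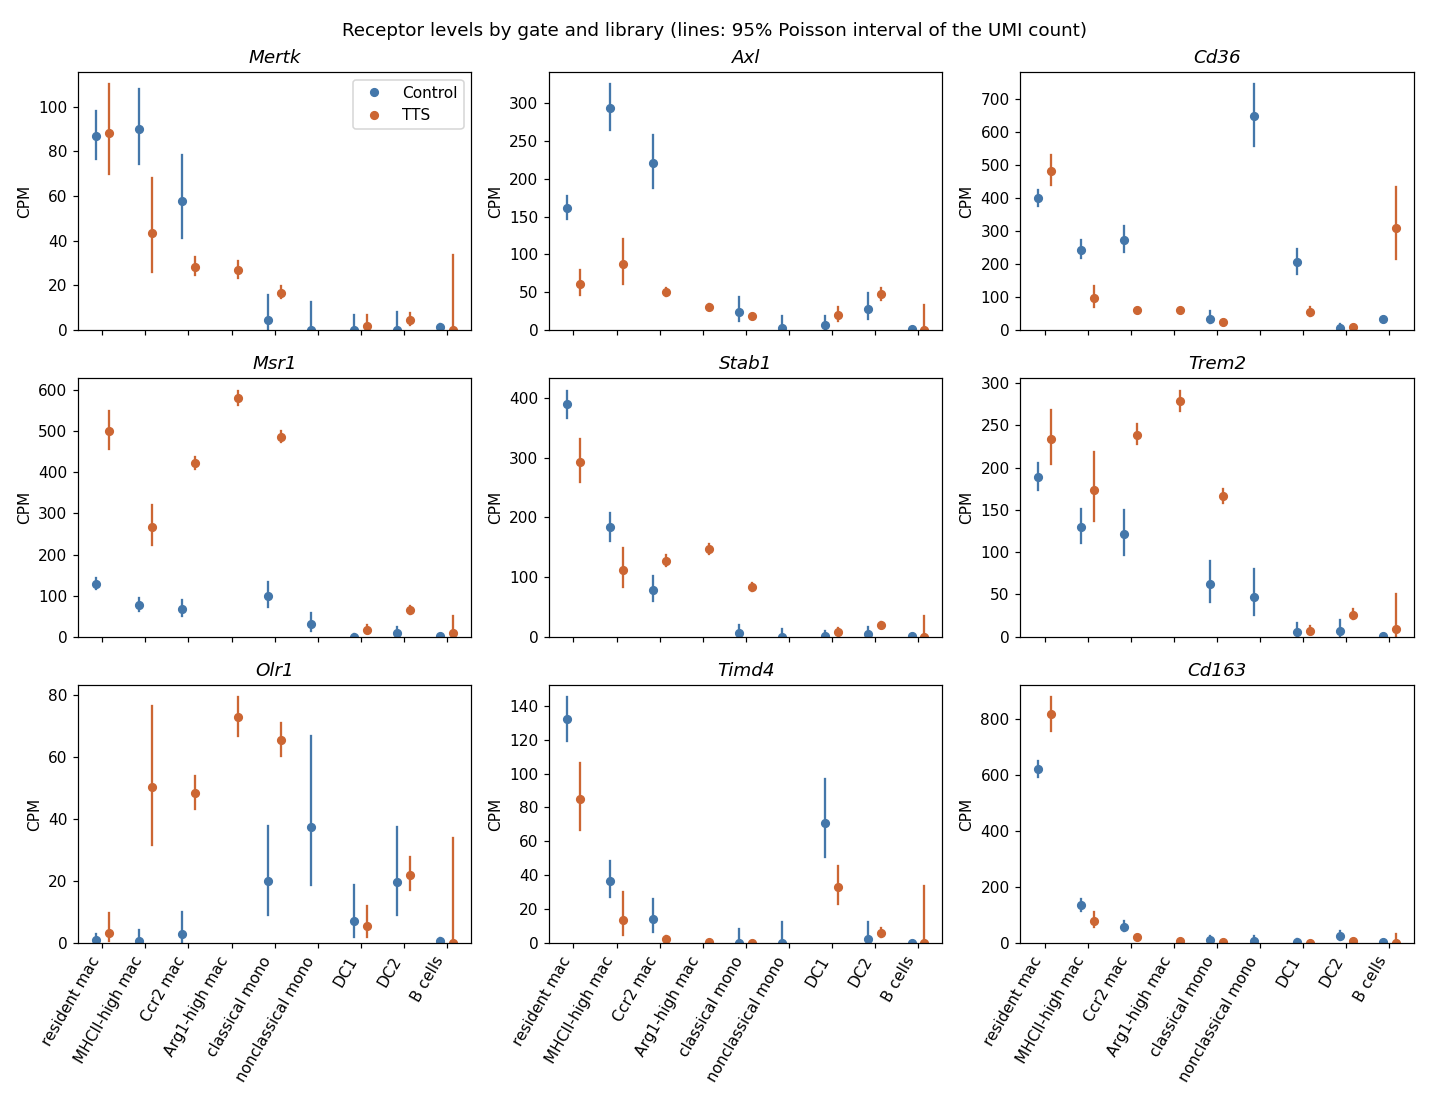
Level of each receptor (panels, CPM of summed UMIs on linear axes) in the macrophage, monocyte and dendritic cell gates and in B cells, with Control in blue, TTS in orange and lines for the 95% Poisson interval. Gates with fewer than 20 cells in a library have no point. Msr1 was higher in TTS than in Control in all 4 macrophage and monocyte gates plotted for both libraries, whereas Cd163 and Timd4 were highest in the resident gate of both.

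Each receptor had its own order of levels over the gates. In Control, Axl was highest in MHC class II high macrophages, at 294 CPM (265 to 325), followed by Ccr2 macrophages at 221 CPM and resident macrophages at 161 CPM, with no overlap between neighbours. In TTS the same 3 gates held 87.1, 50.6 and 61.3 CPM, and neighbours in the order overlapped. Axl was lowest among TTS macrophages in the Arg1-high gate, with 219 UMIs (26.2 to 34.3 CPM). TTS type 2 dendritic cells held 47.7 CPM of Axl (40.3 to 56.0) and TTS mature dendritic cells 65.0 CPM (44.2 to 92.3), within the range of the TTS macrophage gates.

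Msr1 in Control ran from 67.6 to 128 CPM over the macrophage gates and classical monocytes, and neighbours overlapped. In TTS it was highest in Arg1-high macrophages, at 581 CPM (563 to 599), and lowest among macrophages in the 48 MHC class II high cells, at 268 CPM (222 to 321). The latter gate had held 76.9 CPM (62.7 to 93.5) in Control. Type 1 dendritic cells held 0 Msr1 UMIs in Control and 17.4 CPM (10.5 to 27.2) in TTS. There, RNA of Arg1-high macrophages could bring 14.7 CPM by the Spp1 measure. Type 2 dendritic cells held 8.79 and 64.1 CPM, of which such RNA could bring 33.3 CPM in TTS. RNA of TTS classical monocytes would bring more Msr1 for the same Spp1, and that amount was not calculated.

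Olr1 in Control was highest in nonclassical monocytes, at 37.3 CPM (18.6 to 66.7), followed by neutrophils (22.6 CPM), classical monocytes (19.9 CPM) and type 2 dendritic cells (19.8 CPM), whose intervals overlapped, and was at 0.762 to 2.82 CPM in the macrophage gates. In TTS it reached 72.8 CPM (66.7 to 79.3) in Arg1-high macrophages, 65.5 CPM in classical monocytes, and 50.4 and 48.4 CPM in MHC class II high and Ccr2 macrophages, but 3.34 CPM (0.690 to 9.78) in resident macrophages. The 46 TTS neutrophils held 176 CPM (132 to 230). Those neutrophils also held 4837.4 CPM of Spp1, and the part of macrophage RNA in their Olr1 was not tested.

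Over the macrophage and monocyte gates, Trem2 ran in Control from 189 CPM in resident macrophages to 47.5 CPM in nonclassical monocytes, and in TTS from 279 CPM (267 to 291) in Arg1-high macrophages to 166 CPM in classical monocytes. Resident and Ccr2 macrophages of TTS, at 234 and 239 CPM, overlapped. Stab1 was highest in resident macrophages of both libraries, and in TTS was at 147 CPM (138 to 156) in Arg1-high macrophages and 82.9 CPM in classical monocytes. Mertk in TTS was at 28.4 and 27.0 CPM in Ccr2 and Arg1-high macrophages, which overlapped, against 88.1 CPM in resident ones.

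Cd36 and Timd4 were also found outside macrophages. Cd36 was at 648 CPM (559 to 746) in the 67 Control nonclassical monocytes, the highest of the Control gates, and at 206 CPM (169 to 247) in Control type 1 dendritic cells against 54.9 CPM (41.9 to 70.7) in TTS. The 30 TTS B cells held 311 CPM of Cd36, from 34 UMIs that lay in 10.0% of these cells. The 1448 Control B cells held 33.1 CPM, so B cells could not serve as a blank for this gene. Timd4 was at 71.0 CPM (50.5 to 97.0) in Control type 1 dendritic cells and 33.0 CPM (23.1 to 45.6) in TTS, and at 33.6 CPM in TTS mature dendritic cells. Plasmacytoid dendritic cells had 0 Timd4 UMIs in both libraries, with Poisson intervals that reach 20.3 CPM in Control and 10.8 CPM in TTS.

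Within the TTS library, the resident and Arg1-high gates could be set side by side at the same time point and in the same library. Arg1-high macrophages held 8.50 CPM of Cd163 against 815 CPM in resident macrophages, a log2 ratio of -6.57 (-6.98 to -6.21), and 0.411 against 84.7 CPM of Timd4, from 3 UMIs, with -7.47 (-10.00 to -6.09). Cd36 was at 61.8 against 484 CPM, with -2.97 (-3.16 to -2.77), and Mertk at 27.0 against 88.1 CPM, with -1.71 (-2.09 to -1.31). Msr1 had a log2 ratio of 0.21 (0.07 to 0.35) and Trem2 one of 0.25 (0.05 to 0.46), both well within 2-fold. Olr1 was at 72.8 against 3.34 CPM, with 4.22 (2.89 to 6.73). Of the receptors higher over all TTS macrophages, Olr1 was past 2-fold higher in Arg1-high than in resident macrophages, and Msr1 was not.

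The TTS macrophages of the MHC class II high, Ccr2 and Arg1-high gates were also divided by their Arg1 UMIs per 10000 UMIs, a division chosen after the levels were seen. The 514 cells without Arg1 held 378 CPM of Msr1 (359 to 397), the 300 cells above 0 and below 5 held 460 CPM (438 to 484), the 367 cells from 5 to 20 held 550 CPM (529 to 573), and the 293 cells at 20 or more held 626 CPM (597 to 655). Olr1 went from 44.2 CPM (38.1 to 51.0) without Arg1 to 75.1 CPM (65.6 to 85.7) in the highest class, and Axl from 57.3 CPM (50.3 to 64.9) to 21.3 CPM (16.4 to 27.3). Mertk lay between 26.7 and 31.6 CPM and Cd36 between 61.3 and 64.8 CPM in all 4 classes, with overlapping intervals. From the class without Arg1 to the highest class, Trem2 went from 213 to 304 CPM, Stab1 from 116 to 159 CPM and Cd163 from 26.7 to 8.80 CPM. The classes differed in more than Arg1, with H2-Aa going from 1866.7 to 251 CPM and Spp1 from 4013.2 to 14976.5 CPM. Cells without Arg1 UMIs were shallower, with a median of 7494.0 UMIs against 8999.0 to 9831.0 in the other classes. The part of Arg1 itself was not tested.

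**Figure D3:**
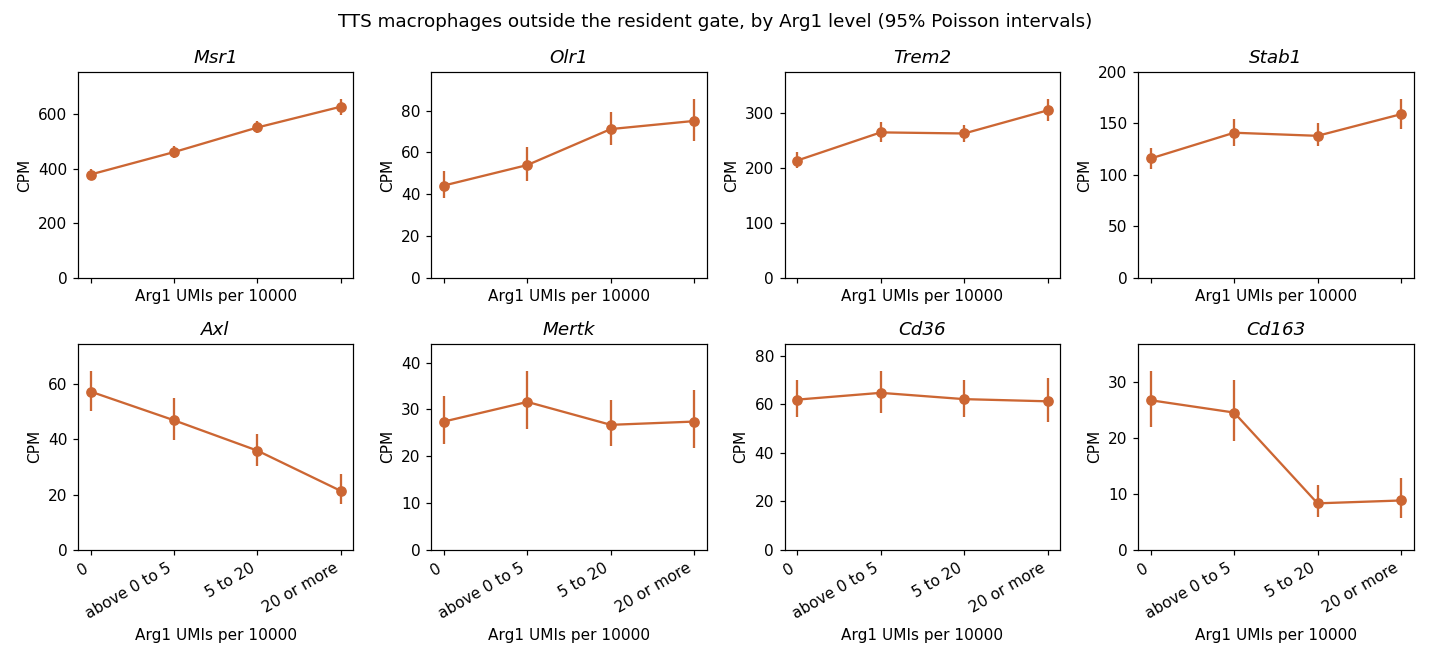
Level of 8 receptors (panels, CPM of summed UMIs) in TTS macrophages of the MHC class II high, Ccr2 and Arg1-high gates, divided into 4 classes by Arg1 UMIs per 10000 UMIs of the cell (horizontal axis). Bars are 95% Poisson intervals. Msr1 went from 378 to 626 CPM and Axl from 57.3 to 21.3 CPM over the classes, while Mertk and Cd36 kept overlapping intervals.

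The share of cells with at least 1 UMI of a receptor was taken after each cell was thinned to 2000 UMIs, since TTS cells were deeper. This left out 55 Control macrophages and 0 TTS macrophages. Msr1 was found in 19.2% of Control macrophages (exact binomial 95% interval 16.4 to 22.2) and 56.5% of TTS macrophages (54.2 to 58.8), or 42.5% and 91.3% before thinning. Cd163 was found in 41.5% (37.9 to 45.1) and 8.84% (7.58 to 10.2), or 57.9% and 16.1% before thinning, and Axl in 30.8% (27.5 to 34.2) and 7.47% (6.30 to 8.77), or 60.1% and 24.4%. Olr1 was found in 0 of 750 thinned Control macrophages, for which the exact interval of the share with a UMI at this depth reaches 0.491%, and in 8.35% of TTS macrophages (7.12 to 9.71). Before thinning, 0.745% and 26.9% held an Olr1 UMI.

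Inside the resident gate, Msr1 was found in 22.9% of Control cells (18.8 to 27.3) and 51.9% of TTS cells (43.0 to 60.8), or 50% and 78.3% before thinning. Axl was found in 23.4% (19.3 to 27.8) and 8.53% (4.33 to 14.7), or 52.9% and 29.5%. Cd163 was found in 60.3% and 58.9%, with overlapping intervals. In the Control B cells, a type that should lack Msr1, Axl and Cd163, the thinned shares were 0.215%, 0.143% and 0.501%, at a median depth of 3359.5 UMIs. In TTS, type 1 dendritic cells held Msr1 in 4 of 100 cells (interval 1.10% to 9.93%), at a median of 10167.0 UMIs. Both of these types were gated on few macrophage markers, which also keeps out cells that carry macrophage RNA. Their low shares can therefore not serve as a blank for free RNA in the macrophages.

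The receptors past 2-fold lower over all macrophages (Mertk, Axl, Cd36, Timd4 and Cd163) and those past 2-fold higher (Msr1 and Olr1) were then followed in single cells, as a description, since the sets were chosen from these values. Of Control macrophages, 65.3% (61.8 to 68.7) held UMIs of the first set alone, 15.7% (13.2 to 18.5) of both sets and 3.47% (2.28 to 5.04) of the second set alone. Of TTS macrophages, 13.8% (12.3 to 15.5) held the first set alone, 16.6% (14.9 to 18.4) both and 43.1% (40.8 to 45.4) the second alone. The gates differed in these shares. Of resident macrophages, 20.6% (16.7 to 24.9) held both sets in Control and 48.1% (39.2 to 57.0) in TTS, while 2.26% and 3.88% held the second set alone. Of Arg1-high macrophages in TTS, 58.5% (54.6 to 62.3) held the second set alone.

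**Figure D4:**
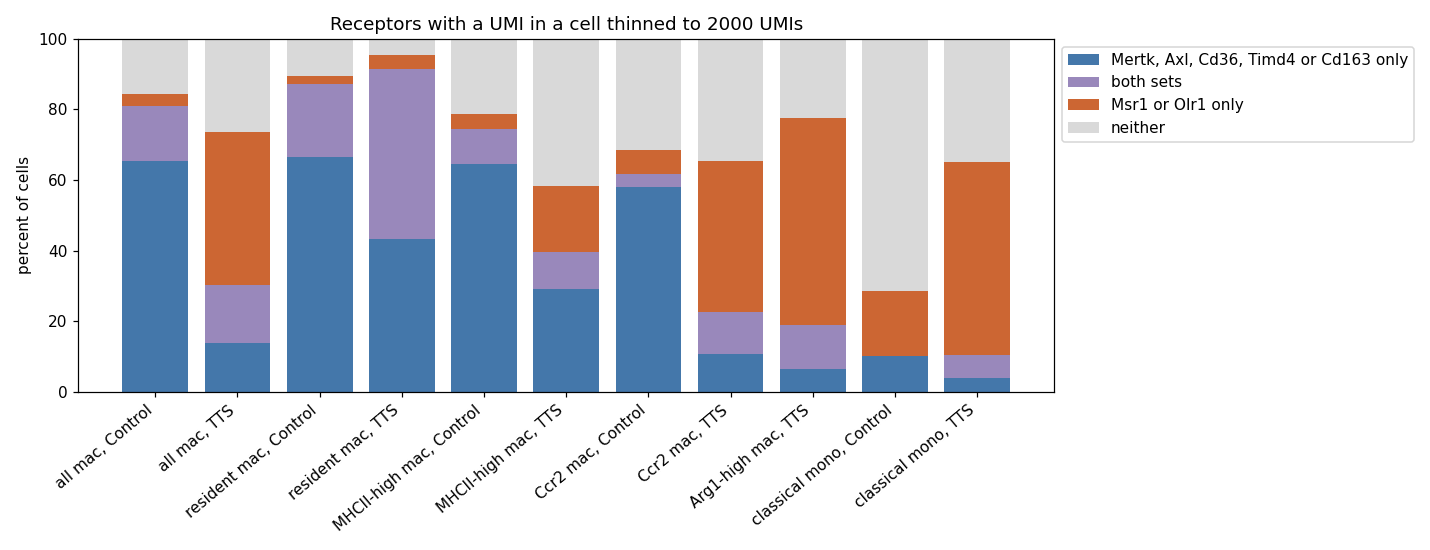
Percent of cells (stacked bars) of each gate and library, thinned to 2000 UMIs, that held UMIs of Mertk, Axl, Cd36, Timd4 or Cd163 only (blue), of Msr1 or Olr1 only (orange), of both sets (purple) or of neither (grey). Resident macrophages of TTS held both sets in 48.1% of cells, against 20.6% in Control, and Arg1-high macrophages held Msr1 or Olr1 alone in 58.5%.

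The shift of the gates and the levels inside them were separated over all monocytes and macrophages, as far as the gates separate the cells. Resident macrophages gave 46.3% of the UMIs of this pool in Control and 3.31% in TTS, MHC class II high macrophages 20.5% and 1.61%, Ccr2 and Arg1-high macrophages together 11.2% and 53.5%, and classical monocytes 7.08% and 32.9%. Weighting the Control levels of the gates by the TTS shares gave the part of a log2 ratio that the shares alone made, and the rest was the part within gates. The 2 steps were also taken in the other order, weighting the TTS levels by the Control shares, a calculation added after the data were seen. The TTS level of nonclassical monocytes came from 7 cells. With 1 cell in the Arg1-high gate of Control, Ccr2 and Arg1-high macrophages were joined for this. A shift of cells between the joined gates, or to another kind of cell inside a gate, was thus counted in the part within gates. Axl, Msr1 and Olr1 differed between the joined gates in TTS. For these genes a change of cell kind and a change of level were not separated inside the joined part.

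For Timd4 the share part was -2.25 of -3.64 (-2.92 in the other order), for Cd163 it was -2.09 of -2.63 (-2.88), and for Mertk it was -0.77 of -1.38 (-1.13). For these 3 genes it was the larger part in both orders. For Axl the part within gates was the larger, -2.09 of -2.34 (-1.54 in the other order). For Msr1 the share part was -0.23 and the part within gates 2.42, of 2.19 in all (0.16 and 2.03 in the other order), and for Olr1 they were 0.94 and 2.82, of 3.76.

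For Cd36, which part was the larger depended on the order, with a share part of -0.72 of -2.12 in one order and -1.88 in the other. For Stab1, the share part was the larger in both orders (-1.64 and -0.65, of -0.98 in all), but the part within gates was 0.65 in one order and -0.33 in the other, and for Cd163 that part was -0.54 and 0.25. For Trem2, the part within gates was 1.08 of 0.58 (0.61 in the other order).

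**Figure D5:**
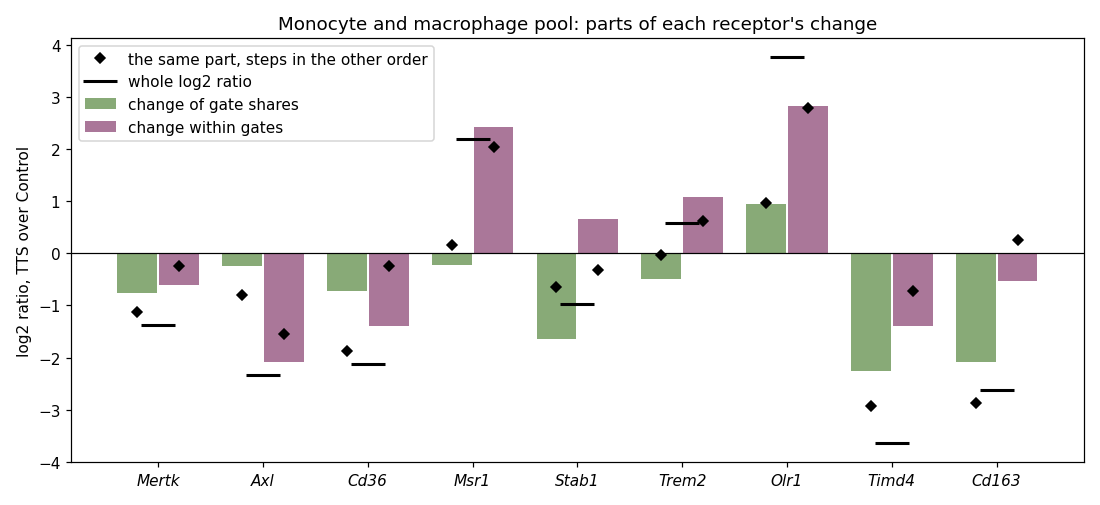
Log2 ratio of TTS over Control for each receptor over all monocytes and macrophages (horizontal strokes), with the part from gate shares (green bars) and the part within gates (purple bars). Diamonds give the same parts with the steps in the other order. The green bar was the longer for Cd163, Timd4, Mertk and Stab1, and the purple bar for Msr1, Olr1, Axl, Cd36 and Trem2.

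Other genes of uptake were read from lists, whose counts stand against the shares over all genes given for each gate. Of 9 bridging ligands among all macrophages, 6 were past 2-fold lower and 2 past 2-fold higher, with a median log2 ratio of -1.68 against -0.24 over all genes. In resident macrophages 1 was lower and 2 were higher, with a median of -0.01. In Ccr2 macrophages 6 were lower and 2 higher (median -1.27), and in classical monocytes 1 and 3 of 8 (0.62). Gas6, a ligand of Mertk and Axl, was at 342 CPM in Control and 27.0 CPM in TTS among all macrophages, a log2 ratio of -3.66 (-3.81 to -3.52). In the resident gate it was at 507 and 263 CPM. C1qa, whose product also coats dying cells, was at 5039.9 and 1167.9 CPM among all macrophages, and at 5923.5 and 6013.1 CPM in the resident gate. C1qc was at 3192.2 and 738 CPM, and at 3848.0 and 3716.3 CPM in the resident gate. Thbs1, which encodes thrombospondin-1, a ligand of Cd36, was at 129 and 1783.8 CPM, a log2 ratio of 3.79 (3.69 to 3.90), and at 16.5 and 185 CPM in resident macrophages. Gas6 and the receptors Axl and Mertk were thus lower in the TTS pool, while the thrombospondin ligand of Cd36 was higher and Cd36 lower. Inside the resident gate Gas6 and Axl were lower as well, but Mertk had a log2 ratio of 0.03 and Cd36 one of 0.27.

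Of 11 other scavenger receptors with enough UMIs among all macrophages, 6 were past 2-fold lower and 0 past 2-fold higher, with a median of -1.53. Inside the gates 9 had enough UMIs. Of these, 2 were lower and 0 higher in resident macrophages (median -0.24), and 3 and 0 in Ccr2 macrophages (0.23). In classical monocytes 1 was lower and 1 higher (0.42). Among all macrophages, Mrc1, the mannose receptor, was at 1019.1 and 269 CPM and Fcrls at 386 and 40.5 CPM. Cxcl16, which binds phosphatidylserine and oxidized lipoprotein, was at 534 and 176 CPM, and Colec12 at 55.0 and 19.1 CPM. In resident macrophages Fcrls was at 515 and 188 CPM, whereas Colec12 was at 94.9 and 177 CPM, with a log2 ratio of 0.90 (0.61 to 1.19). Of 8 other receptors of phosphatidylserine and apoptotic cells, 1 was past 2-fold lower and 1 higher. The latter was Cd300lf, at 2.83 and 74.9 CPM, a log2 ratio of 4.68 (4.02 to 5.54). Tyro3, the other kinase of the Mertk and Axl family, was named after its values were seen and had 0 UMIs among the macrophages of both libraries.

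Of 12 genes of the engulfment machinery, 1 was past 2-fold lower (Dock1, 38.7 and 14.9 CPM) and 0 higher, with a median of -0.32. Of 6 genes of Trem2 signalling, 0 passed 2-fold in either direction. Tyrobp, the Trem2 adaptor, was named after its values were seen and was at 1802.2 and 2416.8 CPM. Of the genes of receptor shedding, 2 had enough UMIs and 0 passed 2-fold.

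Of 15 genes of lipid export and handling, 4 were past 2-fold lower and 4 higher. Fabp5, a fatty acid carrier, was at 4.78 and 112 CPM, Plin2, which coats lipid droplets, at 239 and 657 CPM, and Nr1h3, the sterol sensor LXRα, at 6.37 and 19.8 CPM. Apoe was at 13854.2 and 5059.4 CPM. In resident macrophages Plin2 was at 236 and 783 CPM, so the higher level of Plin2 in TTS was found beside Msr1 in this gate as well.

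Of 10 find-me and do-not-eat-me genes, 3 were past 2-fold lower and 2 higher. Cx3cr1, the receptor of the find-me chemokine fractalkine, was at 466 and 68.2 CPM, and at 457 and 72.5 CPM in resident macrophages. P2ry12, a nucleotide receptor, was at 49.9 and 11.1 CPM, P2ry2, another, at 2.48 and 13.9 CPM, and Cd24a at 19.6 and 123 CPM. Of 7 regulators of resident identity, 4 were past 2-fold lower and 0 higher. Maf was at 834 and 346 CPM, Klf2 at 557 and 218 CPM, Klf4 at 450 and 221 CPM, and Spic at 21.8 and 3.70 CPM. In the resident gate 3 of the 7 were past 2-fold lower and 0 higher, with a median of -0.45 against 0.04 over all genes. Maf, at 1095.7 and 801 CPM, and Klf2, at 686 and 724 CPM, stayed within 2-fold in that gate.

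Likeness was measured as Pearson's r of log2(CPM + 5) over 16 groups, each a gate in 1 library with at least 50 cells, as a description. These groups share libraries, depth and free RNA. Mertk was like Abcc3 (0.976) and Maf (0.956), Axl like Creb5 (0.947), Cxcl16 (0.923) and Errfi1 (0.921), and Stab1 like Dhrs3 (0.964), Rab11fip5 (0.956) and C3ar1 (0.953). Msr1 was most like Ms4a6d (0.967), Ccl9 (0.967) and Cndp2 (0.963), and Trem2 like Tceal8 (0.967), Gm13476 (0.962) and Cndp2 (0.959). Cd163 was most like Rac3 (0.948), Wwp1 (0.944) and Gas6 (0.942), Timd4 like Sult1a1 (0.927), Fxyd2 (0.861) and Rnf150 (0.845), Cd36 like Lilra5 (0.904), Smagp (0.890) and Rit1 (0.852), and Olr1 like Vamp4 (0.913), Ltb4r1 (0.912) and Ccdc71l (0.906). Among the receptors, Msr1 and Trem2 (0.92) and Mertk and Stab1 (0.91) were most alike, and Olr1 and Timd4 least (-0.58).

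RefSeq start site windows of the GRCm38.p6 build, 250 bases before to 50 after the start and 300 in all, were found for 8 of the 9 receptors, all but Msr1. Both strands were searched for 5 short motifs, and a match is a description of letters only. The AP-1 motif TGANTCA was in the windows of Olr1 and Trem2 and in 7.81% of 32851 windows. The PU.1 core GAGGAAG was in those of Axl and Trem2 and in 13.6% of all, the MAF half-site TGCTGAC in that of Timd4 and in 4.67%, the C/EBP motif TTGCNNAA in that of Trem2 and in 10.8%, and CACGTGA, an E-box of lysosomal genes, in none of the 8 and in 3.77%. The windows of Olr1 (chr6:129507116-129507415, minus strand) and Trem2 (chr17:48346151-48346450, plus strand), both higher in TTS classical monocytes, and of Axl (chr7:25788684-25788983, minus strand) and Timd4 (chr11:46810549-46810848, plus strand), both lower in TTS macrophages, are shown with the matches in capitals.
Olr1: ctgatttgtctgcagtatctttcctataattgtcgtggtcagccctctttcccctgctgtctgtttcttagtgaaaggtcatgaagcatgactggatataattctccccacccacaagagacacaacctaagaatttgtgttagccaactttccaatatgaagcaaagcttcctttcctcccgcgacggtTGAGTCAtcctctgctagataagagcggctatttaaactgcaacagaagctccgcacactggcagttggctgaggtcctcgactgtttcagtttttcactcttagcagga
Trem2: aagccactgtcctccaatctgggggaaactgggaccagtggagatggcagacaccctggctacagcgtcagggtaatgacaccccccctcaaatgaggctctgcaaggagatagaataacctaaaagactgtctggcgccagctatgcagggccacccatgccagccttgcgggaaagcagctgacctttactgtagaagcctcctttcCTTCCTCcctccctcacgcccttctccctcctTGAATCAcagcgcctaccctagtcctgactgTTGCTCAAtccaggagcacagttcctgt
Axl: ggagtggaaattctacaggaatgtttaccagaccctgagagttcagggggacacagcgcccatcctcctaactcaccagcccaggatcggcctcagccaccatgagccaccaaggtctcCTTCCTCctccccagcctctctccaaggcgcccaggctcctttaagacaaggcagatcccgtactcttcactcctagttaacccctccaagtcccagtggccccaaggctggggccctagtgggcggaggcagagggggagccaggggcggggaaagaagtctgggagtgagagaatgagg
Timd4: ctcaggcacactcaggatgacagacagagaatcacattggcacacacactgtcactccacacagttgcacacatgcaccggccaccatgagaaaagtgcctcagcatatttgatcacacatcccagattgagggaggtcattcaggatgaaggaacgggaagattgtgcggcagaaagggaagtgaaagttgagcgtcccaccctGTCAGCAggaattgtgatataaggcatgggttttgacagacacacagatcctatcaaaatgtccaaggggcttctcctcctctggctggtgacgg
The AP-1 match of Olr1 began 60 bases before the start site and that of Trem2 9 bases before it.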

How the data were processed

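Both 10x Chromium 3' (V3) libraries, Control and TTS, were analysed, grouped by the titles in the labels. The deposited values are counts of UMIs per gene and cell, which the authors made, per the submitters' processing notes in the labels, with bcl2fastq 2.19.1.403, UMI-tools 1.0.0, STAR 2.7.3a and featureCounts 1.6.4 on mm10. Free RNA was not removed here. Cells with over 500 and under 6000 genes and under 25% mitochondrial UMIs were kept, as in the study's methods. Gates used summed marker UMIs per 10000 UMIs of the cell: at least 10 for macrophages, 3 for resident markers, 2 for Ccr2, 5 for Arg1 and 100 for MHC class II genes, and a mean log2 level of 1.5 for classical monocyte markers. The limits were set after marker levels were seen, and members and lists were chosen with earlier results of these data known. UMIs were summed per gate and divided by all UMIs of the gate. No test was run, with 1 library per group. Scripts were tested on simulated data. From each of the lists up to 4 genes past 2-fold among all macrophages, with at least 100 UMIs in the higher library, were named by size, and the 3 most alike genes among those reaching 50 CPM, of which 1 is not reported here. Alternatives included other limits and filters, Scrublet (scanpy 1.11.5), TMM scaling (edgeR 4.0.16), per-cell means, thinning with fixed seeds, and subtraction of B cell levels. Gene positions come from GENCODE vM21 annotation of the same build.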

Additional observations from a re-analysis of the deposited data

Results flagged for a closer look

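Some receptors had ratios of opposite sign in different gates, with counting intervals on either side of 0, and these differences were not tested since each group was 1 library. Cd163 had a log2 ratio of TTS over Control of 0.40 in resident macrophages, -1.41 in Ccr2 macrophages and -1.98 in classical monocytes. Cd36 was at 0.27 in resident macrophages and -2.17 in Ccr2 macrophages. Stab1 was at -0.41 in resident macrophages, 0.68 in Ccr2 macrophages and 3.43 in classical monocytes. Mertk was at -1.04 in Ccr2 macrophages and 1.61 in classical monocytes, the latter from 2 Control UMIs.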

How the results depend on the processing

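No paired analysis was possible because each group was 1 library, and no library could be left out. Of 396 member ratios under other settings, 330 stayed inside the counting interval, 66 moved outside it and 0 turned a called direction. With barcodes of 2 lineages kept, the receptors past 2-fold lower were 3 in all macrophages and 2 in Ccr2 macrophages, and those past 2-fold higher in resident macrophages were 2, the added one being Olr1. With limits doubled, 3 were lower in Ccr2 macrophages, and with limits halved 2 were lower in classical monocytes. At 1.5-fold, 2 were lower in resident macrophages and 4 higher in Ccr2 macrophages. Without a UMI minimum, 2 were higher in resident macrophages and 2 lower in classical monocytes. Subtracting B cell levels gave 2 lower in resident macrophages, where Cd36 went to -1.09, and 2 lower in classical monocytes. The Cd36 level subtracted in TTS came from 34 UMIs in 10.0% of the 30 TTS B cells, which could not serve as a blank for this gene. Subtracting the level in type 1 dendritic cells was a setting added after the data were seen. It gave 2 higher in resident macrophages, where Cd36 went to 1.14, and 3 lower in classical monocytes. Type 1 dendritic cells held 206 CPM of Cd36 in Control and 54.9 CPM in TTS, and 71.0 and 33.0 CPM of Timd4. They could thus not serve as a blank for these genes. Both B cells and type 1 dendritic cells were also gated on few macrophage markers. TMM scaling shifted ratios by 0.22 in all macrophages and 0.21 in classical monocytes, and put Trem2 just past the limit in Ccr2 macrophages, where 3 receptors were then past 2-fold higher. Classical monocytes fell under 50 Control cells, and gave no value, with limits doubled, at 10% mitochondrial UMIs, at 1000 genes and after thinning. The MHC class II high, Arg1-high, nonclassical monocyte and type 2 dendritic cell gates gave no ratio under the reported setting and were not run under others. Scrublet's own threshold marked 13 Control and 0 TTS barcodes, so the 255 and 236 highest scores were removed instead. Thinning to 1000 UMIs moved 57 of 72 shares. The share and within-gate parts moved by over 0.25 in 37 of 126 values, and none of those past 2-fold turned. Olr1 in Control macrophages rests on 8 UMIs.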
